A study of Mus musculus with 4 samples.

Results

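Interferon response genes were compared between mammary terminal end buds that carried or had lost the transcription factor gene Ovol2. The genes were chosen by their symbols alone, through a fixed pattern that covers the OAS, IFIT, IFITM, GBP, IRF and p200 families and a set of single antiviral genes. The pattern found 77 genes among the 19938 that had a probe set of their own on the array. Of these 77 genes, 46 were bright enough to be tested and 31 lay under the filter on low signal. Probe sets shared between several genes were left out, 7 of them with a symbol of the pattern. Isg15, Gbp2, Igtp and Irgm2 were therefore not analysed here. The pattern also took in 4 genes that resemble the family by name only, the co-repressor genes Irf2bp1, Irf2bp2 and Irf2bpl and the exonuclease gene Isg20l2.

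Terminal end buds are the growing tips of the ducts in the pubertal gland, and they were physically separated from glands of female C57/BL6 mice. Knockout mice were Ovol2flox/-;K14-Cre, so that every cell carried 1 null allele, and Cre, driven by the keratin 14 promoter of basal epithelium and skin, deleted the floxed one. Controls were Ovol2flox/+ in the sample characteristics, while the protocol lists Ovol2flox/+ with or without K14-Cre. There were 2 control arrays of 2 pooled mice each and 2 knockout arrays of 3 pooled mice each, all littermates kept together, so the pool size changed with the genotype. Age is 4.5 weeks in the sample labels and 24 to 25 days in the series text.

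Interferons are secreted proteins by which cells warn each other of infection. Type I interferons (alpha and beta) signal through the receptor chains Ifnar1 and Ifnar2 and the kinases Jak1 and Tyk2 to a transcription factor complex that includes Stat2 and Irf9 and binds the interferon-stimulated response element (ISRE) in promoters. Interferon gamma signals through Ifngr1, Ifngr2, Jak1 and Jak2, and its target promoters often hold the gamma-activated site (GAS). The induced genes include sensors of foreign RNA and DNA, enzymes that block viral replication, and GTPases that attack microbes inside cells. Many of them are expressed at a low level in uninfected tissue, epithelium included.

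Values below are log2(signal + 16) after quantile normalization, a difference is knockout minus control, a value after ± is its SE from limma with n = 2 arrays per group, and the threshold was an adjusted p of 0.05 over the 11963 genes tested. Genes whose mean over the 4 arrays lay under 7.97 were not tested, because no detection calls were used and a dim signal could not be told from background. Array medians of the deposited linear signal lay between 252 and 272. Ovol2 itself read 8.05 and 8.31 on the control arrays and 7.85 and 7.73 on the knockout arrays (difference -0.39 ± 0.16, adjusted p = 0.17). It was lower in both knockout arrays but did not pass, and where its probes lie relative to the deleted part is not known here. All 18 luminal and all 15 basal epithelial markers on the array were bright enough to be tested. They were not level: 4 luminal markers rose, and 7 basal markers rose and 2 fell (9 of 15, against 10.7% of all tested genes), with differences of 1.08 for the stem cell marker Lgr5 and 0.94 for the oxytocin receptor gene Oxtr. Of 9 tested adipocyte markers 6 rose. Of 16 tested fibroblast markers 15 rose in the knockout, with a median difference of 1.21, and their summed linear signal went from 13374 and 14050 on the control arrays to 29009 and 35828 on the knockout arrays. In pooled tissue, fewer cells of a type and less RNA per cell cannot be told apart.

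Promoters are shown first, because they carry the element that defines the type I response and because it occurs in 1 member that fell and in 2 that rose. Of the 77 genes, 58 matched a RefSeq promoter table of the GRCm38.p6 assembly, which holds 250 bases before and 50 after each annotated start. The 6 genes below hold the ISRE core and had the largest differences among those past the threshold or in a fixed set of well-known genes. Each line gives the 150 bases before the start, 5′ to 3′ on the strand of the gene, and capitals mark the ISRE core, which is GAAA, any 2 bases and GAAA, or its reverse complement, TTTC, any 2 bases and TTTC. Where 2 copies overlap, the capitals run on. Of these genes Ifit1 fell, Ifi203 and Ifi207 rose, and Rsad2, Oas1a and Bst2 did not pass.
Ifit1, chr19:34640739-34640888, + strand: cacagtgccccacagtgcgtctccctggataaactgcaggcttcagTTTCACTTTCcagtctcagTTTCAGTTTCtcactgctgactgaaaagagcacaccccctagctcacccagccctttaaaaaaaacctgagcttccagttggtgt
Rsad2, chr12:26456453-26456602, - strand: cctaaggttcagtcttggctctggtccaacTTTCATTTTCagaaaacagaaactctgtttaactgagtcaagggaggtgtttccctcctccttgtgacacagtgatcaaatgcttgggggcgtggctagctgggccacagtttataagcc
Oas1a, chr5:120907526-120907675, - strand: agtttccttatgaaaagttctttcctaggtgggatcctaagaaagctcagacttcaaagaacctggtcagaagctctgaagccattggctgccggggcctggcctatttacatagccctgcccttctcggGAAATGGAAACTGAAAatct
Bst2, chr8:71537473-71537622, - strand: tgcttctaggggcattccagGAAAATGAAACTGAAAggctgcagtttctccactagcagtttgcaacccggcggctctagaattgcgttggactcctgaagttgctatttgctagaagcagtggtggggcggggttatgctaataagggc
Ifi203, chr1:173942493-173942642, - strand: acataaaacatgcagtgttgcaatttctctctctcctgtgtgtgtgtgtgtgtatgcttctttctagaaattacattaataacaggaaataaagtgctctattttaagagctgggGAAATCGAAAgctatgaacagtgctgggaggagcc
Ifi207, chr1:173741810-173741959, - strand: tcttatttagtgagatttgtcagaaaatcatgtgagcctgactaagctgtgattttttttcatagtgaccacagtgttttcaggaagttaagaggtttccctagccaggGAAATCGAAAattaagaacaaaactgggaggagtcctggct

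The 77 genes did not move as a block. Of the 46 tested, 6 fell, 5 rose and 35 did not pass, and the median difference was -0.012 beside -0.022 over all tested genes. The share past the threshold was 23.9% of the tested members and 10.7% of all tested genes; it was 13.0% against 4.46% for lower and 10.9% against 6.29% for higher signal. Without the 4 genes matched by name only, 5 fell and 4 rose of 42. The 2 knockout arrays both lay below both control arrays for 15 members (32.6%, against 29.9% of all tested genes) and both above for 14 (30.4%, against 26.4%), shares near the background. The members that fell were Oas2, Usp18, Ifit1, Oasl1, Oasl2 and Irf2bp1, and those that rose were Ifi203, Ifi207, Ifi27, Ifitm1 and Irf2bp2. A variance prior without a mean-variance trend left 1 of the 11 calls, Usp18, at 2.17% of members against 1.58% of all genes. Without control replicate 1 the calls were Oas2, Oasl2 and Usp18, or 6.52% of members against 3.97% of all genes.

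**Figure D1:**
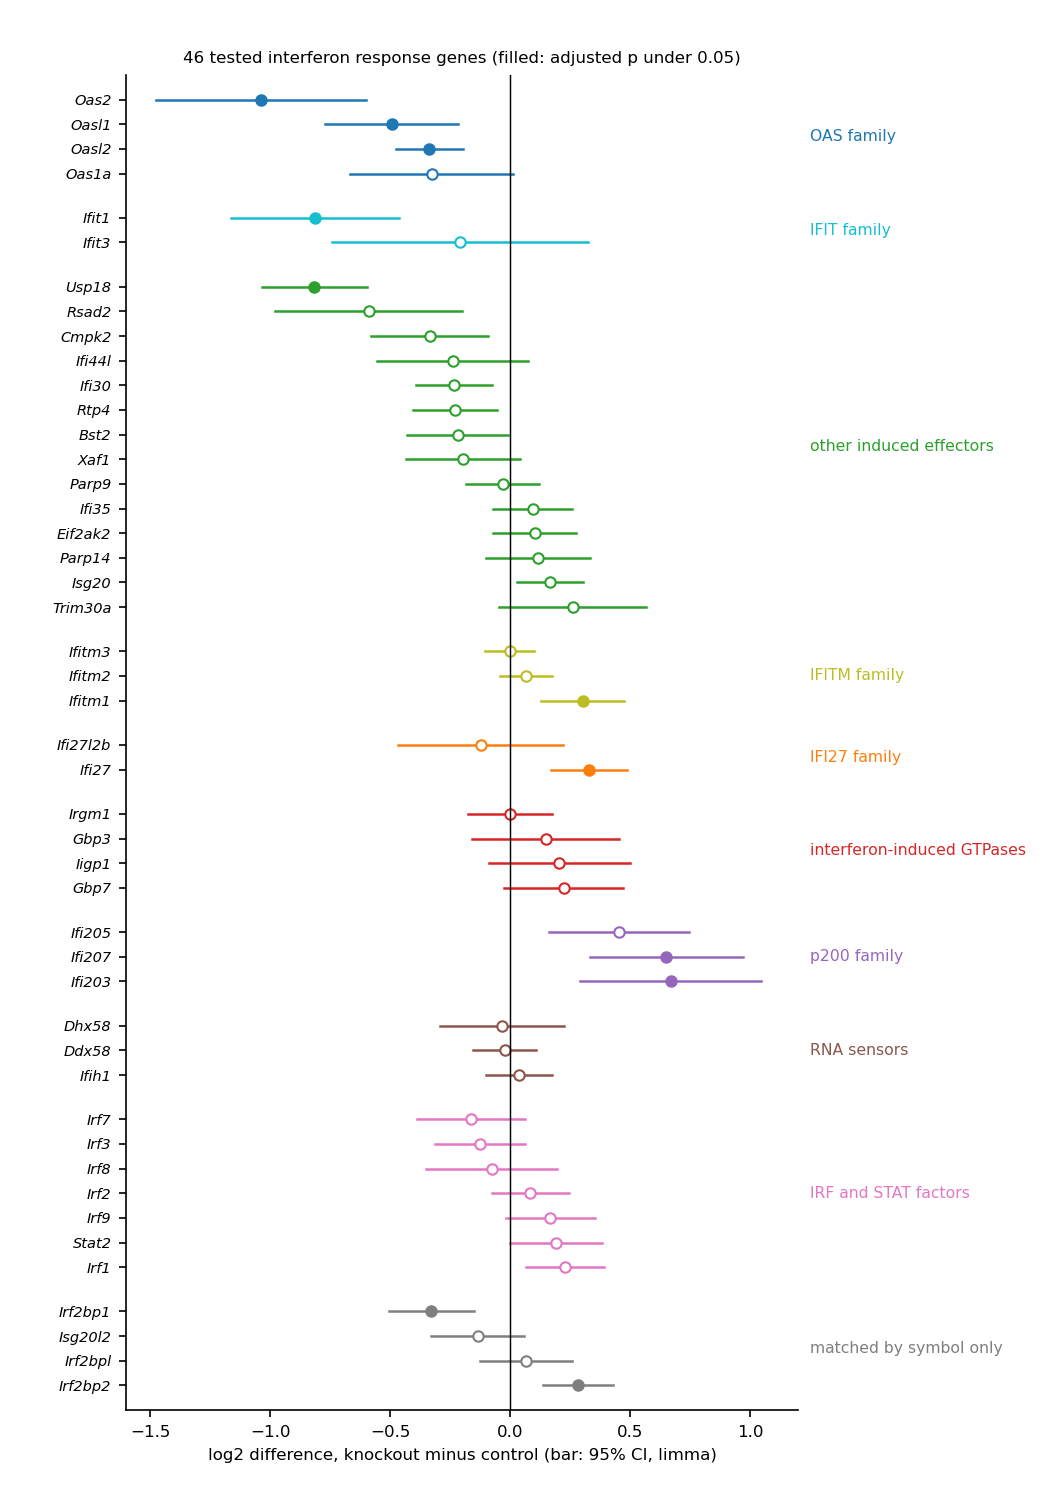
Log2 difference, knockout minus control, of the 46 tested interferon response genes, grouped by role, with 95% confidence intervals from limma and n = 2 arrays per group; filled circles passed the adjusted p threshold of 0.05. The OAS genes, Ifit1 and Usp18 lie to the left of 0, the p200 genes Ifi203, Ifi205 and Ifi207 to the right, and the 3 RNA sensors at 0 within their intervals.

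The enzymes of the OAS family, which on binding double-stranded RNA make the oligoadenylates that activate RNase L, held 3 of the 6 members that fell. Oas2 had the lowest difference of all 77 genes: it read 8.93 and 8.91 on the control arrays and 8.22 and 7.55 on the knockout arrays. Both knockout arrays were well below the controls, and the second was the lower by 0.67. Oas2 fell 2.05-fold (difference -1.04 ± 0.20, adjusted p = 0.0105), with -0.70 without knockout replicate 2 and -1.37 without knockout replicate 1. Oasl1, which in the mouse restrains translation of Irf7, went from 8.78 and 8.67 to 8.17 and 8.29, and fell by 0.49 ± 0.12 (adjusted p = 0.0338). The groups did not overlap, but the call was lost without either control array. Oasl2, a synthetase with a ubiquitin-like tail, was the brightest of the family at 10.90 and 10.94 on the control arrays against 10.53 and 10.64 on the knockout arrays. It fell 1.26-fold with a small spread within groups (difference -0.34 ± 0.06, adjusted p = 0.00979), a call that median centring ended.

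Oas1a, the fourth tested member of the family, read 8.30 and 8.22 on the control arrays and 8.05 and 7.83 on the knockout arrays. Its difference of -0.33 ± 0.15 did not pass (adjusted p = 0.214), although the groups did not overlap. All 4 tested OAS genes thus had both knockout arrays below both controls, against 29.9% of all tested genes. The knockout means of Oas2 (7.88) and Oas1a (7.94) lay under the filter level, and their control means (8.92 and 8.26) brought them into the test. Which OAS genes were tested therefore depended in part on the control signal, which limits the comparison with all tested genes. The 7 OAS genes not tested were under the filter. Among them Oas3 went from 7.89 and 7.76 to 7.52 and 7.37, and the differences of Oas1b to Oas1h lay between -0.11 and 0.030, near or at the level of a dim signal. The OAS1 genes are close copies of each other, and the array may not separate them fully.

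Usp18 was the member whose call held under every one of its 13 alternatives. The gene encodes a protease that strips ISG15 from proteins and also blocks the type I interferon receptor, and it is itself induced by interferon. It read 10.67 and 10.69 on the control arrays and 10.03 and 9.70 on the knockout arrays. The controls differed from each other by far less than from either knockout array. Usp18 fell 1.76-fold (difference -0.81 ± 0.10, adjusted p = 0.00141), with adjusted p values up to 0.0472 over the alternatives and differences between -0.98 and -0.65.

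The IFIT genes encode proteins that bind foreign RNA and block its translation, and they did not follow 1 pattern. Ifit1 went from 9.62 and 9.35 on the control arrays to 8.43 and 8.91 on the knockout arrays. Here knockout replicate 1 was the lower array, the reverse of Oas2 and Usp18. Ifit1 fell 1.76-fold (difference -0.81 ± 0.16, adjusted p = 0.0111), a call lost without control replicate 1 (adjusted p = 0.0682). Its neighbour Ifit3 read 9.00 and 8.44 on the control arrays and 8.15 and 8.87 on the knockout arrays. The groups overlapped, because knockout replicate 2 lay within the range of the controls, and the difference of -0.21 ± 0.24 did not pass (adjusted p = 0.631). It was -0.57 without knockout replicate 2 and passed, and 0.15 without knockout replicate 1. The dim member Ifit2 had a difference of 0.33, with 7.59 and 7.81 on the control arrays and 7.84 and 8.22 on the knockout arrays.

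Of 14 other induced effectors tested, 1 fell (Usp18) and 13 did not pass. The share past the threshold was 7.14%, below the 10.7% of all tested genes. For lower signal alone it was 7.14% against 4.46%. The group median was -0.21, and 9 of the 14 had a lower mean, beside 6662 of all 11963 tested genes. Rsad2, which encodes viperin, an enzyme that makes a chain-terminating nucleotide, read 8.89 and 8.39 on the control arrays and 7.98 and 8.13 on the knockout arrays. The groups did not overlap, but the 2 controls were 0.50 apart, and the difference of -0.59 ± 0.17 missed the threshold (adjusted p = 0.0607). It passed with the values as deposited, median centring, a robust prior and the replicate number as a block. The block fit took the variance as known. The deposited values and median centring gave lower adjusted p values by limma (0.00541 and 0.00653) at smaller differences (-0.53 and -0.58). Rsad2 did not pass with an offset of 1, no filter, a prior without the trend or averaged probe sets. When 1 array was left out, the difference ranged from -0.84 to -0.34. Cmpk2, a nucleotide kinase gene adjacent to Rsad2 in the genome, went from 8.91 and 8.85 to 8.51 and 8.58 (-0.34 ± 0.11, adjusted p = 0.0818).

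Smaller differences of the same sign were seen for Ifi30, Rtp4 and Bst2. Ifi30, a lysosomal thiol reductase gene of antigen processing, differed by -0.23 ± 0.07 (adjusted p = 0.0672), and Rtp4, a receptor transporter gene with antiviral activity, by -0.23 ± 0.08 (adjusted p = 0.0972). Bst2, which encodes tetherin, a protein that holds budding virus at the cell surface, went from 9.49 and 9.32 to 9.15 and 9.22 (-0.22 ± 0.09, adjusted p = 0.181). In each of these 3 genes both knockout arrays lay below both controls, and in none did the difference pass. Among the 14 tested effectors, 7 lay below both controls in this way and 2 lay above both. The shares of all tested genes were 29.9% below and 26.4% above. Mx1, a dynamin-like GTPase gene that blocks influenza virus, was under the filter at 7.31 and 7.12 on the control arrays and 6.75 and 6.54 on the knockout arrays. With no filter it passed (difference -0.57 ± 0.15, adjusted p = 0.0474).

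Not every effector was lower. Eif2ak2, the gene of the kinase PKR that stops translation on double-stranded RNA, read 9.49 and 9.48 on the control arrays and 9.59 and 9.58 on the knockout arrays (0.10 ± 0.08, adjusted p = 0.45). Isg20, an RNA exonuclease gene, had a difference of 0.17 ± 0.06 and Trim30a, a regulator of inflammatory signalling, 0.26 ± 0.14, neither past the threshold. Parp9, Parp14 and Ifi35 had differences between -0.030 and 0.12.

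**Figure D2:**
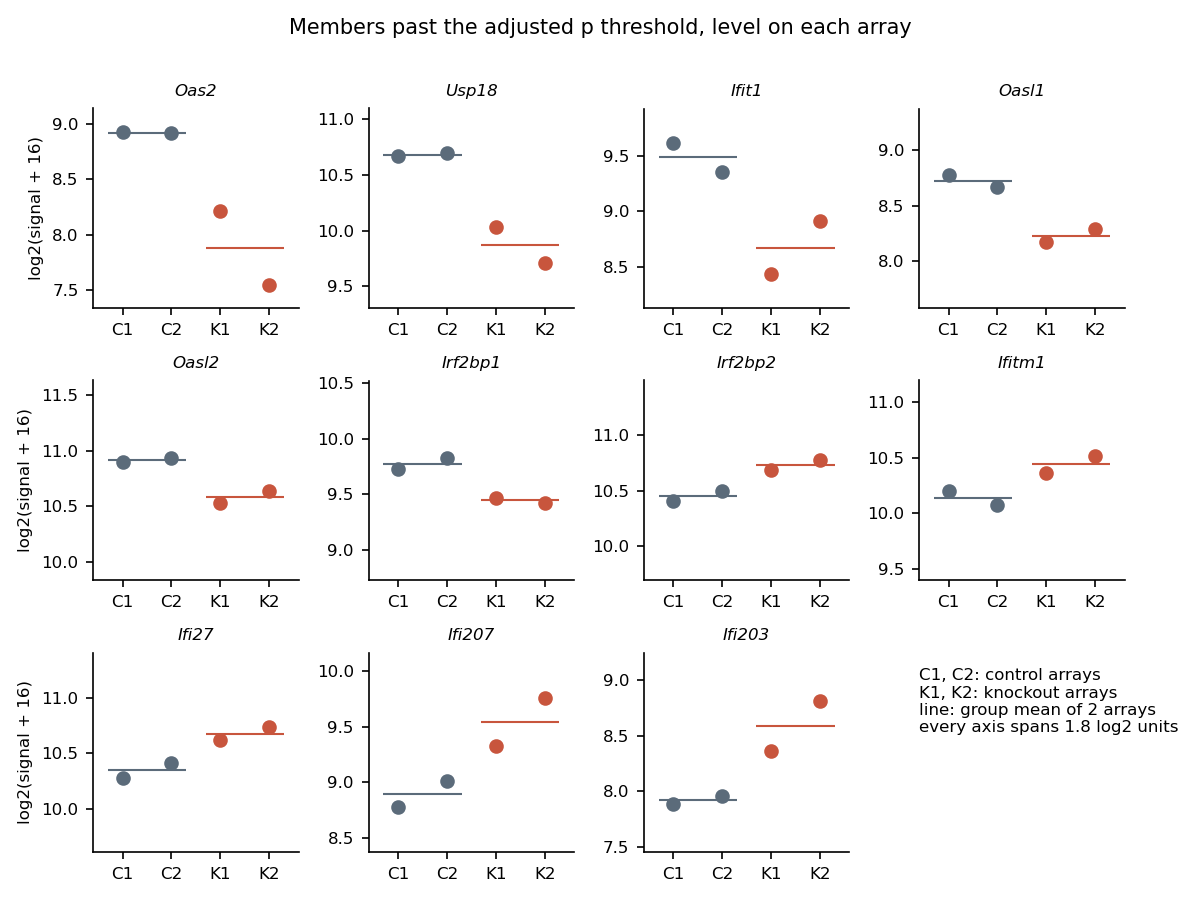
Level of the 11 members past the threshold on each array, as log2(signal + 16); C1 and C2 are control arrays, K1 and K2 knockout arrays, lines are group means and every axis spans the same range. In each of the 11 genes both knockout arrays lie on 1 side of both controls, which follows largely from choosing them by their difference on these arrays. Of all tested genes, 26.4% lie above both controls and 29.9% below. The lower knockout array is the second for Oas2 and Usp18 and the first for Ifit1.

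The p200 genes of the pattern, which encode DNA-binding proteins of the nucleus and cytosol, held the largest increases among the 77 genes. Genes of this family under other symbols were not counted here. Ifi203 read 7.88 and 7.96 on the control arrays and 8.36 and 8.82 on the knockout arrays. Both knockout arrays were above both controls, and Ifi203 rose 1.59-fold (difference 0.67 ± 0.17, adjusted p = 0.0335). The size depended on knockout replicate 2, with 0.44 without it and no call (adjusted p = 0.251), and the call was also lost without either control array. Ifi207 went from 8.77 and 9.01 to 9.33 and 9.76 and rose 1.57-fold (difference 0.65 ± 0.14, adjusted p = 0.0191; 0.54 and no call without control replicate 1). Ifi205 went from 8.29 and 8.45 to 8.70 and 8.94 and just missed the threshold (0.45 ± 0.13, adjusted p = 0.054). All 3 tested p200 genes had both knockout arrays above both controls, against 26.4% of all tested genes. The control mean of Ifi203 (7.92) lay under the filter level, and its knockout mean (8.59) brought it into the test. Which p200 genes were tested therefore depended in part on the knockout signal, which limits the comparison with all tested genes.

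The 6 other p200 genes lay under the filter and had lower means. Ifi209 read 6.51 and 6.50 on the control arrays and 5.53 and 5.58 on the knockout arrays, a difference of -0.95 in a dim signal. It passed when no filter was applied (adjusted p = 0.00346). The differences of the remaining 5 lay between -0.30 and -0.12 and none passed without the filter. The p200 genes sit in 1 cluster on chromosome 1 and are close in sequence, so their probe sets may share signal.

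IFI27 and IFITM genes include the other members that rose. Ifi27, which encodes a small hydrophobic protein of cell organelles, read 10.28 and 10.42 on the control arrays and 10.62 and 10.73 on the knockout arrays. It rose 1.26-fold (0.33 ± 0.07, adjusted p = 0.0189), with no call for median centring or without control replicate 1. Its dim relative Ifi27l2a had a difference of 0.42, and Ifi27l2b -0.12 ± 0.15.

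IFITM proteins sit in membranes and hinder their fusion with viruses. Ifitm1 went from 10.20 and 10.07 to 10.36 and 10.52 and rose 1.23-fold (0.30 ± 0.08, adjusted p = 0.0364). Its second probe set had a difference of 0.16 with overlapping groups, and Ifitm1 did not pass when both were averaged (adjusted p = 0.131), nor with median centring, with no filter, or when any array but knockout replicate 1 was left out. Ifitm3, the brightest of the 77 genes, read 12.73 in both controls and 12.70 and 12.76 on the knockout arrays. Its difference was -0.0012 ± 0.0459 (95% CI -0.10 to 0.10), a narrow interval around 0. Ifitm2 had a difference of 0.066 ± 0.048.

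The interferon-induced GTPases, which act on vacuoles that hold microbes and are typical targets of interferon gamma, showed a difference between the 2 knockout arrays. By limma 0 of the 4 tested members passed, also 0 at an unadjusted p under 0.05 (25.5% of all tested genes), with differences of 0.22 ± 0.11 for Gbp7, 0.21 ± 0.13 for Iigp1, 0.15 ± 0.14 for Gbp3 and -0.0013 ± 0.0780 for Irgm1. Of all 10 of these genes, 6 were under the filter and so not told from background. Knockout replicate 2 lay above the control mean for 10 of 10, with a median of 0.36, beside 8196 of all 19938 genes. Knockout replicate 1 lay above it for 2 of 10, with a median of -0.031, beside 8160 of all 19938. The dim gene Gbp4 showed the widest gap, at 7.56 and 7.91 on the control arrays, 7.62 in knockout replicate 1 and 8.50 in knockout replicate 2. Without knockout replicate 1, the differences were 0.37 for Gbp7 and 0.43 for Iigp1. Cxcl9, a chemokine gene induced by interferon gamma and no member of the list, read 8.31 and 8.32 on the control arrays, 8.24 in knockout replicate 1 and 9.36 in knockout replicate 2. It was picked after its values were seen. Of the 45 other interferon-induced genes outside the pattern, Cxcl9 among them, 23 lay above the control mean in knockout replicate 1 and 27 in knockout replicate 2. Their medians were 0.012 and 0.030. Several GBP genes are near copies of each other, which the array may not separate.

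**Figure D3:**
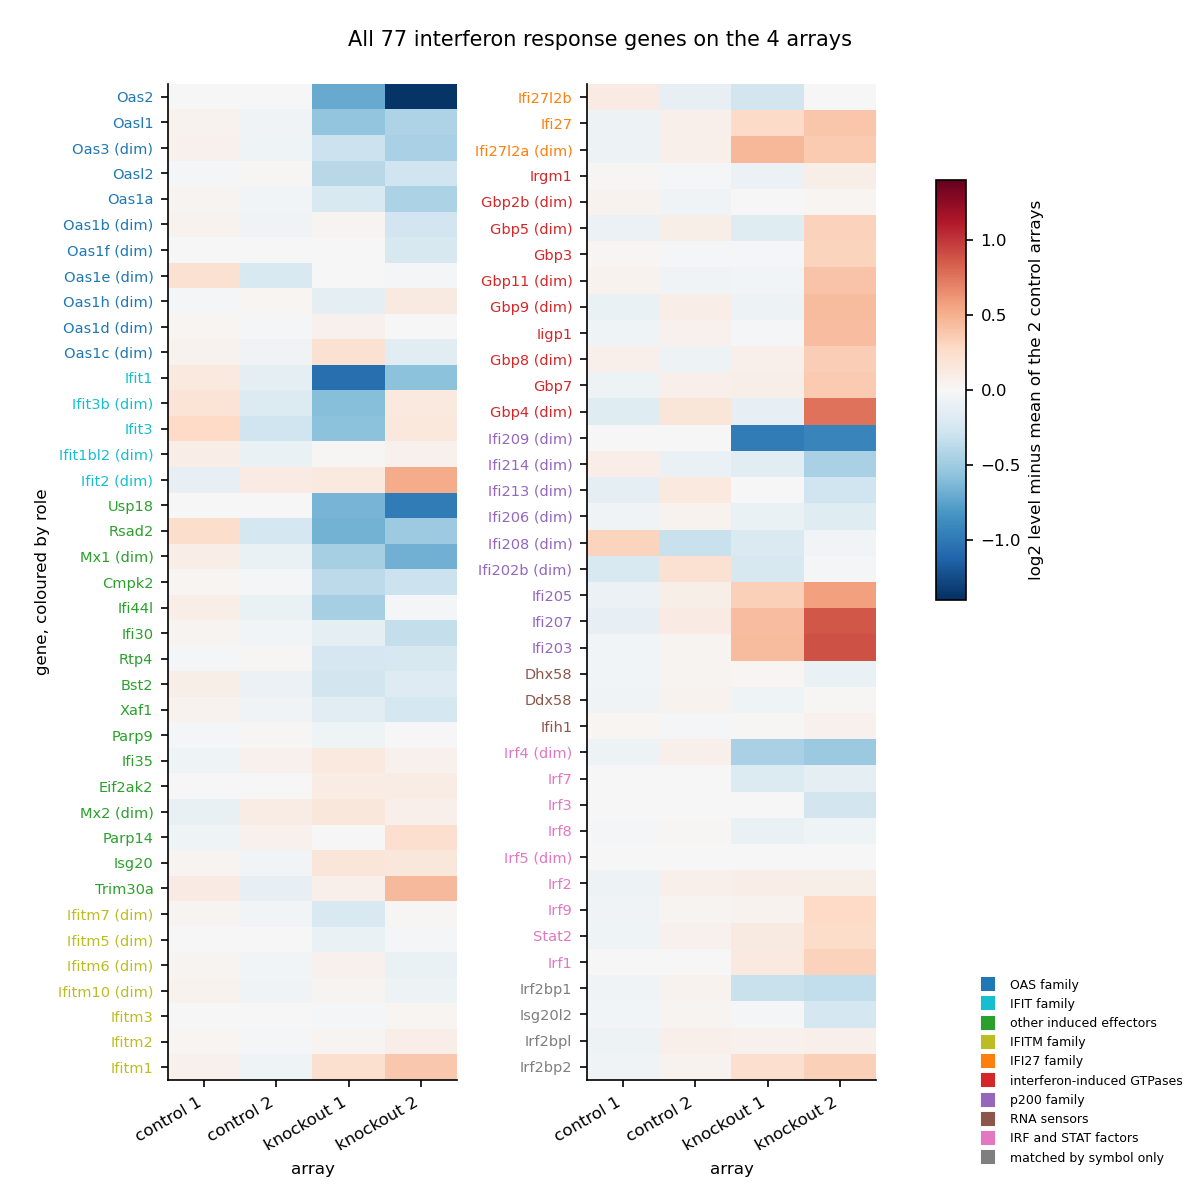
Level of all 77 interferon response genes on each of the 4 arrays as the log2 difference from the mean of the 2 controls (blue lower, red higher), with gene names coloured by role and genes under the filter marked as dim. The 4 tested OAS genes and Usp18 are lower on both knockout arrays, Ifi203, Ifi205 and Ifi207 are higher on both, and all 10 GTPase genes lie above the control mean on knockout replicate 2 but 2 of 10 on knockout replicate 1.

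The factors that carry the interferon signal to the genome did not pass the threshold. Of 7 tested IRF and STAT genes, 0 rose and 0 fell by limma, beside 1 with an unadjusted p under 0.05, which 25.5% of all tested genes had. That gene was Irf1, a transcription factor gene induced by interferon gamma, which read 10.45 and 10.44 on the control arrays and 10.58 and 10.77 on the knockout arrays (0.23 ± 0.07, adjusted p = 0.0769). Its groups did not overlap, and it passed with a robust prior and with the replicate number as a block. The block fit took the variance as known from the trend. Without knockout replicate 1 the difference was 0.32. Stat2 and Irf9, partners in the type I complex, had differences of 0.19 ± 0.09 (adjusted p = 0.201) and 0.17 ± 0.08 (adjusted p = 0.238). Both therefore had the opposite sign to Oas2, Usp18 and Ifit1.

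Irf7, the amplifier of the type I response, read 8.96 and 8.97 on the control arrays and 8.77 and 8.83 on the knockout arrays, with a difference of -0.16 ± 0.10 (adjusted p = 0.352). Irf3, which starts that response and is not itself strongly induced, read 10.46 in both controls and in knockout replicate 1 and 10.21 in knockout replicate 2 (-0.13 ± 0.08, adjusted p = 0.398). Irf4, a factor of lymphocytes, was under the filter at 6.59 and 6.72 on the control arrays and 6.20 and 6.14 on the knockout arrays. Irf2 and Irf8 had differences of 0.085 ± 0.071 and -0.076 ± 0.122.

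The cytosolic RNA sensors were level between groups. Ddx58, the gene of the sensor RIG-I, had a difference of -0.023 ± 0.059 (95% CI -0.16 to 0.11), and Ifih1, the gene of MDA5, 0.038 ± 0.062 (95% CI -0.10 to 0.18). Dhx58, the gene of LGP2, had -0.033 ± 0.114. Each sensor gene had overlapping groups, and 0 of the 3 had an unadjusted p under 0.05.

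The genes matched by name only gave 2 of the 11 calls. Irf2bp1 read 9.73 and 9.82 on the control arrays and 9.47 and 9.43 on the knockout arrays and fell 1.26-fold (-0.33 ± 0.08, adjusted p = 0.0289). Its relative Irf2bp2 went the other way, from 10.40 and 10.49 to 10.69 and 10.78, and rose 1.22-fold (0.28 ± 0.06, adjusted p = 0.0236). Both encode nuclear proteins that bind the repressor Irf2. The Irf2bp1 call was lost in the values as deposited, with median centring and without either control array, and the Irf2bp2 call with median centring and without control replicate 1.

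The rest of the interferon pathway was described by lists of genes outside the pattern. Of the 16 interferon genes on the array, 14 lay under the filter and the 2 tested did not pass by limma, with 0 at an unadjusted p under 0.05; Ifnb1 read between 6.98 and 7.21 and Ifng between 6.84 and 7.13 over the 4 arrays. Of 9 receptor and kinase genes 1 rose (11.1%), a share near the 10.7% of all tested genes. Jak2, a kinase of the interferon gamma receptor and of several cytokine and hormone receptors, went from 10.83 and 10.97 to 11.45 and 11.34, and rose 1.41-fold (0.49 ± 0.07, adjusted p = 0.00227). Its call was lost under 1 of 13 alternatives, the prior without a trend. Ifnar2, the receptor chain to which Usp18 binds, had a difference of 0.21 ± 0.06 and did not pass (adjusted p = 0.0603).

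Of 10 tested feedback inhibitors of the SOCS, PIAS and phosphatase families, 0 passed by limma, beside 2 with an unadjusted p under 0.05 (25.5% of all tested genes). Of 15 tested genes of nucleic acid sensing, 1 fell (6.67%, below the 10.7% of all tested genes): the DNA sensor gene Aim2, at 9.71 and 9.34 on the control arrays and 8.89 and 7.22 on the knockout arrays. The size came largely from knockout replicate 2, with -0.63 without that array against -1.47 with it, and its call was lost under 5 of 12 alternatives, among them leaving out control replicate 1. Of 36 other tested interferon-induced genes, 2 rose and 3 fell (13.9% past the threshold, against 10.7% of all tested genes). The Schlafen gene Slfn5 rose 1.72-fold, from 8.13 and 8.42 to 8.84 and 9.28, while its relative Slfn9 fell 1.33-fold, from 10.07 and 10.05 to 9.57 and 9.72. Tap2, a peptide transporter gene of antigen presentation, rose by 0.35 ± 0.07, and Mlkl, the executor of necroptosis, and the galectin gene Lgals9 fell by 0.37 ± 0.09 and 0.28 ± 0.07. Without control replicate 1, none of Slfn5, Slfn9, Tap2, Mlkl and Lgals9 passed, and with median centring none of these but Slfn5 did. Mlkl and Lgals9 each passed under 7 of 13 alternatives, and both calls were also lost with no filter and without knockout replicate 2.

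**Figure D4:**
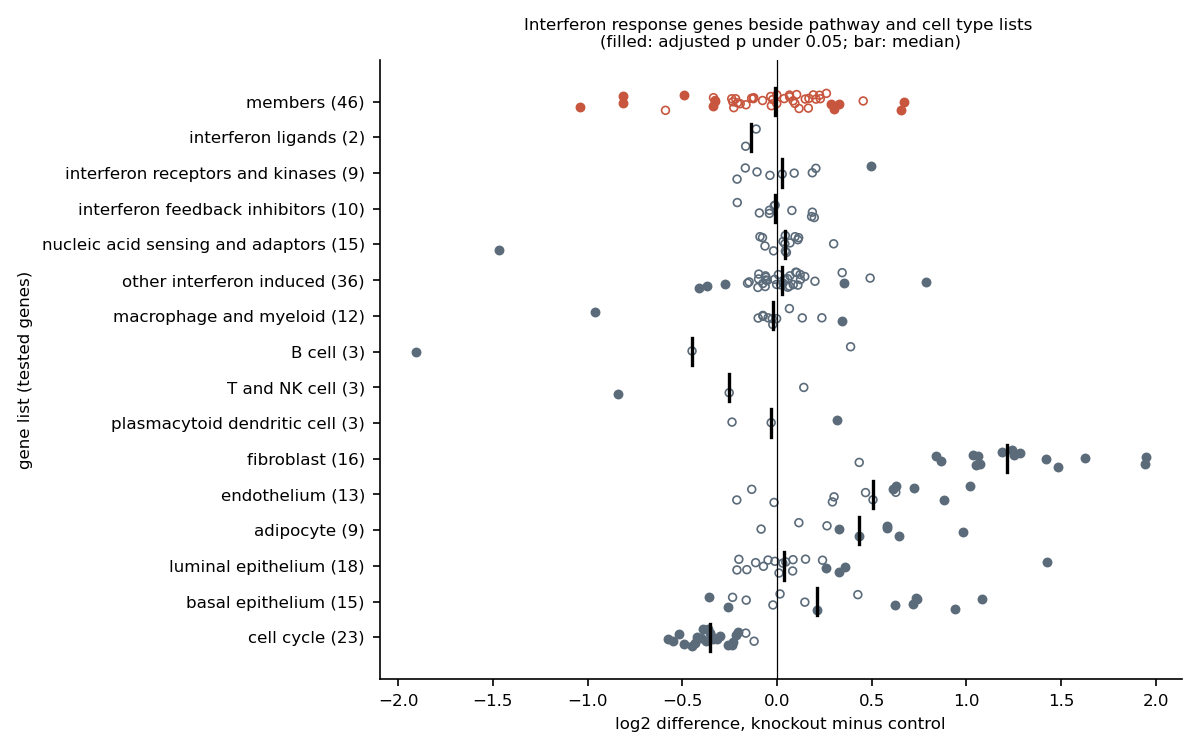
Log2 difference, knockout minus control, of the tested interferon response genes (top, red) and of the tested genes of the pathway and cell type lists; each circle is a gene, filled where it passed the adjusted p threshold, and black bars are list medians. The members spread to both sides of 0 with a median of -0.012, the cell cycle genes lie below 0 and the fibroblast genes above it.

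Blood and immune cells carry much of the interferon response in many tissues, and their markers were not level between the groups. Of 9 B-cell markers, 8 had both knockout arrays below both controls and 6 were under the filter; Cd79b, part of the B-cell receptor, read 9.66 and 9.02 on the control arrays and 7.68 and 7.19 on the knockout arrays. The summed linear signal of the 9 markers ranged from 2978 to 3604 on the control arrays and from 2279 to 2625 on the knockout arrays. The remaining marker, Cd74, was the brightest of the 9 and weighs most on these sums. It went the other way, from 10.27 and 10.14 on the control arrays to 10.38 and 10.82 on the knockout arrays, and did not pass. For 15 T and NK cell markers the sums were 2612 to 2879 and 2275 to 2407, and 12 of the 15 were under the filter. Both knockout arrays lay below both controls for 7 of the 15 and above both for 3 (Ncr1, Gzma and Gzmb), against 5886 and 4007 of all 19938 genes. The tested markers that fell, Cd79b and the T-cell homing receptor gene Ccr7, had the direction of Oas2, Usp18, Ifit1, Oasl1 and Oasl2, and the part of these cells in those differences was not tested.

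Of 12 tested macrophage and myeloid markers, 1 rose and 1 fell (16.7%, against 10.7% of all tested genes). Cd14, a co-receptor for bacterial lipopolysaccharide, rose from 10.15 and 10.14 to 10.52 and 10.44, and Lyz2, a lysozyme gene, fell from 10.26 and 10.40 to 9.86 and 8.87. The summed linear signals of the list were 7638 and 8340 on the control arrays, 8900 in knockout replicate 1 and 6774 in knockout replicate 2, and 14 of 18 markers lay above the control mean in the first knockout array but 4 of 18 in the second. Siglech, a defining marker of plasmacytoid dendritic cells, which are strong producers of interferon, was under the filter at 7.12 to 7.30 over the 4 arrays. Of the 7 markers on the list for these cells 3 were tested, of which 1 rose (Tcf4, 0.31 ± 0.06) and 2 did not pass. That is 33.3% past the threshold, against 10.7% of all tested genes. Over all 7, 6 had a lower mean and 1 a higher mean, beside 12413 of all 19938 genes with a lower mean. Cell cycle genes, chosen as a sign of dividing cells, fell in 21 of 23 cases with a median of -0.35. Fibroblast markers rose in 15 of 16 cases, the direction of Ifi203, Ifi207, Ifi27 and Ifitm1. Of 13 tested endothelial markers 5 rose and 8 did not pass, with a median of 0.51 and differences of -0.13 for Flt1, -0.016 for Eng and -0.21 for Lyve1. No marker was at a signal of 0, and the part of these cells in the interferon gene differences was not tested.

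The promoter windows allowed 1 more description that the symbols did not use. The ISRE core was present in 30 of 70 promoter windows of the members (42.9%), against 3.44% of the 32851 windows of all genes. The GAS motif TTCNNNGAA, which is its own reverse complement, was in 15 of 70 (21.4%), against 8.3%. Both motifs together were in 7 windows. A match is a run of letters in the window and not evidence of a bound site.

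Differences of genes with the ISRE core ranged from -0.81 for Ifit1 to 0.67 for Ifi203. The lowest members, Oas2, Ifi209 and Usp18, either had no window in the table (Oas2 and Usp18) or no core in it (Ifi209). Of the 29 members with the core 19 were tested, of which 1 fell (Ifit1) and 2 rose (Ifi203 and Ifi207), with a median of 0.066. Of the 29 members with a window but no core 18 were tested, of which 3 fell and 2 rose, with a median of -0.13. The shares past the threshold were 15.8% with the core and 27.8% without it, against 10.7% of all tested genes. These shares rest on few calls, and a link between the core and the differences was not tested. In Ifit1 the 2 copies begin at -104 and -85 from the start, in the orientation opposite to that of Ifi203 and Ifi207, whose single copies begin at -35 and -41 and share the letters GAAATCGAAA. Ifi206, Ifi208, Ifi213 and Ifi214, dim p200 genes with differences between -0.30 and -0.12, also hold the core, with first bases between -79 and -40.

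**Figure D5:**
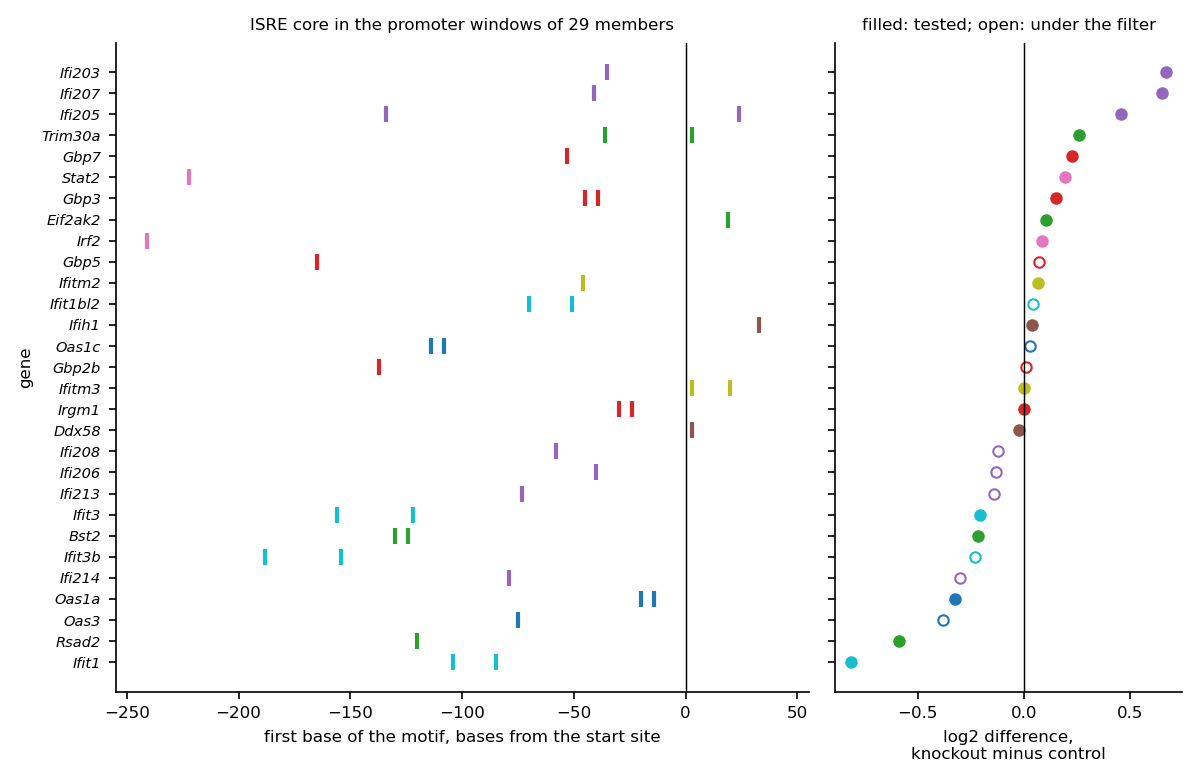
Left, position of the first base of each ISRE core in the promoter windows of the 29 members that hold it, in bases from the annotated start, with genes ordered by log2 difference and coloured by role. Right, the log2 difference of each gene, knockout minus control; Ifit1, with copies at -104 and -85, is the lowest and Ifi203, with 1 copy at -35, the highest.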

How the data were processed

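The deposited table held 1 linear signal intensity per probe set and array for 35556 probe sets, made by the authors with Affymetrix Expression Console 1.1.1 and PLIER 2.0 per the submitters' processing notes. For background correction, for normalization between arrays and for the build, details were not given in the sources used here. Of these probe sets 21789 carried 1 gene symbol in the platform annotation; per gene the one with the highest mean signal was used. The arrays were quantile normalized over all probe sets on the log2(signal + 16) scale. Genes under the 40th percentile of the mean were left out, and knockout was compared with control with limma 3.58.1 in R 4.3.3 (lmFit and eBayes, the prior variance following mean signal; two-sided; Benjamini-Hochberg over 11963 genes). The code was tested on simulated data. The labels call the arrays biological replicates; 2 per group and 2 residual degrees of freedom limit the precision.

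The members, the gene lists and the tests were chosen with earlier results of these data known. Named genes are the members past the threshold, the 10 tested members with the largest differences, a fixed set of well-known genes, members under the filter, and the leading genes of each list; Cxcl9 and some further genes were named after their values were seen. Alternatives changed the offset, normalization, filter, variance prior, probe set rule, replicate block and arrays included. Motifs were searched on both strands; TATAAA was more frequent 40 to 11 bases before the start (712) than 70 to 41 (290), the orientation in which the table was read.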

Additional observations from a re-analysis of the deposited data

How the results depend on the processing

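Over the alternatives to the main settings, members higher numbered 5 and became 2 with median centring and 0 with a variance prior without the trend, and ranged from 0 to 11 when 1 array was left out. Members lower numbered 6 and became 3 with the filter at the 60th percentile (30 members tested) and 1 without the trend, with a range of 3 to 10 when 1 array was left out. Over all genes, 752 higher and 533 lower became 480 and 274 with median centring, 144 and 45 without the trend, and 1168 and 1076 with the replicate block; leaving out 1 array gave 320 to 1168 higher and 155 to 1183 lower. The sign turned for Ifitm3 in the values as deposited (0.013), and when 1 array was left out the difference ranged from -0.074 to 0.029 for Ddx58, -0.57 to 0.15 for Ifit3, -0.028 to 0.026 for Ifitm3 and -0.25 to 0.0022 for Irf3; none of these 4 passed with all 4 arrays and the main settings. The causes were not tested. The 11 member calls were all kept with an offset of 1, a robust prior and the replicate block, which called 15 members in all.

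The replicate numbers are shared between the groups, but the labels do not pair the arrays. Over tested genes the difference between replicates 1 and 2 in the controls correlated with that in the knockouts at r = -0.20; a crossed replicate block, added after the data were seen, called 13 members and 1186 genes. Fits with the block or without a knockout array took the variance as known from the trend. With 1 signal per probe set and no detection calls, the 31 dim members could not be told from background.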
